A study of Rattus norvegicus with 50 samples.

Results

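Transcripts of 4 genes of astrocytes, the glial cells that take up transmitter and control water and ions around synapses, were followed in the medial prefrontal cortex of Wistar rats. They are Slc1a2 (ENSRNOG00000005479) and Slc1a3 (ENSRNOG00000016163), the 2 glutamate transporters of astrocytes, Aqp4 (ENSRNOG00000016043), their water channel, and Gfap (ENSRNOG00000002919), their intermediate filament protein. These 4 of the 29516 Ensembl identifiers were chosen by identifier, for what the genes do, with earlier results of these data known. The deposited tables hold identifiers only, and the reference table used here, of the assembly GRCr8, lists 0 Ensembl rat identifiers. The pairing of symbols and identifiers was therefore taken as given and could not be checked.

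RNA sequencing of total RNA depleted of ribosomal RNA was made from wild-type Wistar rats and from Wistar rats with the label SERT knock-out, which lack the serotonin transporter, the protein that takes serotonin back into neurons. Tissue was taken at postnatal days 8, 14, 21, 35 and 70. With 5 libraries in each of the 10 groups, there were 50 libraries. The labels name no other allele, treatment, sex or housing, and do not say whether each library came from its own animal, so p-values measure the spread between libraries, which may be partly technical. The transporter gene that was knocked out, and markers of other cell types, could not be matched to an identifier and are not analysed here, so neither the genotype labels nor the tissue label was checked against marker genes.

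Astrocytes clear most of the glutamate that neurons release, through EAAT2 (GLT-1), encoded by Slc1a2, and EAAT1 (GLAST), encoded by Slc1a3. In the rodent forebrain GLAST is known as the transporter of radial glia and young astrocytes, while GLT-1 becomes the main carrier as synapses mature. The Aqp4 channel sits in the endfeet that astrocytes place on blood vessels, and Gfap is most used as a stain for fibrous and reactive astrocytes, being low in much of the resting cortical grey matter.

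The RefSeq windows just upstream of the members' transcription starts are shown as a description of the genes, and they differ in base composition. Their relation to the ages at which the members rose was not tested. RefSeq (GRCr8) gave such a window, matched by symbol, for 3 of the 4 genes, and each is the 250 bases before the most upstream listed start, 5′ to 3′ on the gene's strand with every CG dinucleotide in capitals. The window of Slc1a2 lies at chr3:109459859-109460108 on the plus strand, that of Slc1a3 at chr2:59557809-59558058 on the minus strand, and that of Gfap at chr10:88361662-88361911 on the minus strand.
Slc1a2: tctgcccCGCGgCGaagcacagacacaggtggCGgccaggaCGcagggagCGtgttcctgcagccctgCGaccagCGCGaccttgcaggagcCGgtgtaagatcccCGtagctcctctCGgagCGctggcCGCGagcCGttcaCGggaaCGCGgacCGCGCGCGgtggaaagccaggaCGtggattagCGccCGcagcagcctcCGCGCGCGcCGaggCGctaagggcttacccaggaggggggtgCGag
Slc1a3: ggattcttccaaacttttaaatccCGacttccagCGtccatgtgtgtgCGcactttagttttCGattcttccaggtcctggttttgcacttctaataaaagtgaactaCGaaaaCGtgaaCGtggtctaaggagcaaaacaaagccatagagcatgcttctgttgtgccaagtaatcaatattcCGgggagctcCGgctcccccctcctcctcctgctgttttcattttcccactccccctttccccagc
Gfap: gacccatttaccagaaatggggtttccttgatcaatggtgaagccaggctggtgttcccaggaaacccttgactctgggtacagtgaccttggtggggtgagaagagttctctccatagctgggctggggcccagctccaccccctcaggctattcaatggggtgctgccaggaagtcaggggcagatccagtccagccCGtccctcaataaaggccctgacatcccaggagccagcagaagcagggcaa
The Slc1a2 window held 33 CG dinucleotides and 71.2% G and C. Of the 33469 windows of that length that RefSeq gave, 96.4% held fewer CG, and the medians over all were 5 CG and 51.2% G and C. The Slc1a3 window held 9 CG and 48.0% G and C, and 61.5% of windows held fewer CG. The Gfap window held 1 CG and 57.6% G and C, and 7.83% of windows held fewer CG. These are descriptions of the sequence, and no measurement of methylation or binding was made here.

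Levels are given as FPKM, fragments per kilobase of transcript at a common library depth, which allows genes to be compared per length. Each library was divided by a factor between 0.829 and 1.20 that brings the median gene to the same level in all libraries, and these are called scaled FPKM below. The deposited FPKM of a library summed to between 330440 and 2141919, and its 50 highest rows held between 48.8% and 82.2% of that sum. Depth could be read only as a ratio between libraries, from 0.397 to 1.42 of the median library, and the labels give about 29000000 reads per library. All 4 members were above 0 in all 50 libraries. In 6 libraries the mean correlation with the other libraries of the group was under 0.94, a limit chosen after seeing the data, and they are said below to stand apart (knockout 30-5 at day 8, 17-1 at day 21 and 7-3 at day 35, and wild-type 20-2 and 21-3 at day 14 and 16-2 at day 21). Age and genotype differences were tested with limma on log2(scaled FPKM + 0.5) over the 14779 genes with a mean of at least 0.5 scaled FPKM, all 4 members among them. A gene is said to have risen, fallen or changed only at a Benjamini-Hochberg adjusted p under 0.05. Folds on this scale understate those of low genes, strongly so where the FPKM is near the added 0.5.

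Slc1a2 was the member that moved most with age. At day 8 the 5 wild-type libraries held 47.6, 49.1, 49.8, 53.5 and 56.2 scaled FPKM of Slc1a2. At day 14 they held 150, 154, 158, 160 and 238, and at day 21 they held 260, 275, 286, 291 and 422. No wild-type library overlapped between these 3 ages, and 1 library at each of the later ages, 21-3 and 16-2, lay far above its 4 group mates. The day 35 values were 229, 254, 272, 273 and 293, and the day 70 values 258, 265, 265, 272 and 314, both overlapping with day 21. Group means ± SD (n = 5), in order of age, were 51.3 ± 3.53, 172 ± 37.3, 307 ± 65.5, 264 ± 24.2 and 275 ± 22.6. In the wild-type, Slc1a2 rose by 1.72 ± 0.13 log2 units (SE) from day 8 to 14, a 3.29-fold change (limma adjusted p = 2.13e-14). It rose again by 0.83 ± 0.13 from day 14 to 21, or 1.78-fold (limma adjusted p = 3.80e-06).

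The knockout libraries followed the same order for Slc1a2. They held 42.5, 48.8, 56.8, 58.4 and 71.1 scaled FPKM at day 8. At day 14 they held 130, 132, 135, 165 and 196, and at day 21 they held 264, 269, 277, 278 and 294. These 3 ages again did not overlap, and the day 8 library at 71.1 was 30-5, which stands apart. At day 35 the values were 254, 265, 288, 296 and 404, the last from library 7-3, and at day 70 they were 251, 277, 279, 287 and 287. The means were 55.5 ± 10.8, 152 ± 28.6, 276 ± 11.5, 301 ± 60.0 and 276 ± 14.6 from day 8 to day 70. In the knockout the rise from day 8 to 14 was 1.45 ± 0.13 log2 units (limma adjusted p = 2.31e-12). The rise from day 14 to 21 was 0.88 ± 0.13 (limma adjusted p = 1.25e-06).

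On the log2 scale used here, few genes rose as much as Slc1a2 in the second postnatal week. This scale understates the rises of low genes, so the counts that follow depend on the constant added before taking logs. Low genes with a larger fold in FPKM than Slc1a2 can be missing from these counts. Of the 14779 genes, 33 had a larger log2 increase from day 8 to 14 in the wild-type and 118 in the knockout, and for the week from day 14 to 21 these counts were 372 and 273. Over the whole course from day 8 to 70, Slc1a2 rose 5.32-fold in the wild-type and 5.01-fold in the knockout, with 95% intervals from 2.15 to 2.67 and from 2.06 to 2.58 log2 units. In 4 of the 6 libraries that stand apart Slc1a2 was the highest of its group, at 71.1, 404, 238 and 422 scaled FPKM. Their depths were 0.743, 0.801, 0.726 and 0.397 of the median library. In the others, knockout 17-1 and wild-type 20-2, Slc1a2 was the lowest of its group, at 264 and 150 scaled FPKM. The depths of 17-1 and 20-2 were 0.584 and 1.24, and the part of depth in all these values was not tested. Without all 6, the wild-type rise of Slc1a2 from day 8 to 14 was 1.61 log2 units and that from day 14 to 21 was 0.82, and in the knockout the rises were 1.54 and 0.90, all 4 still called by limma.

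**Figure D1:**
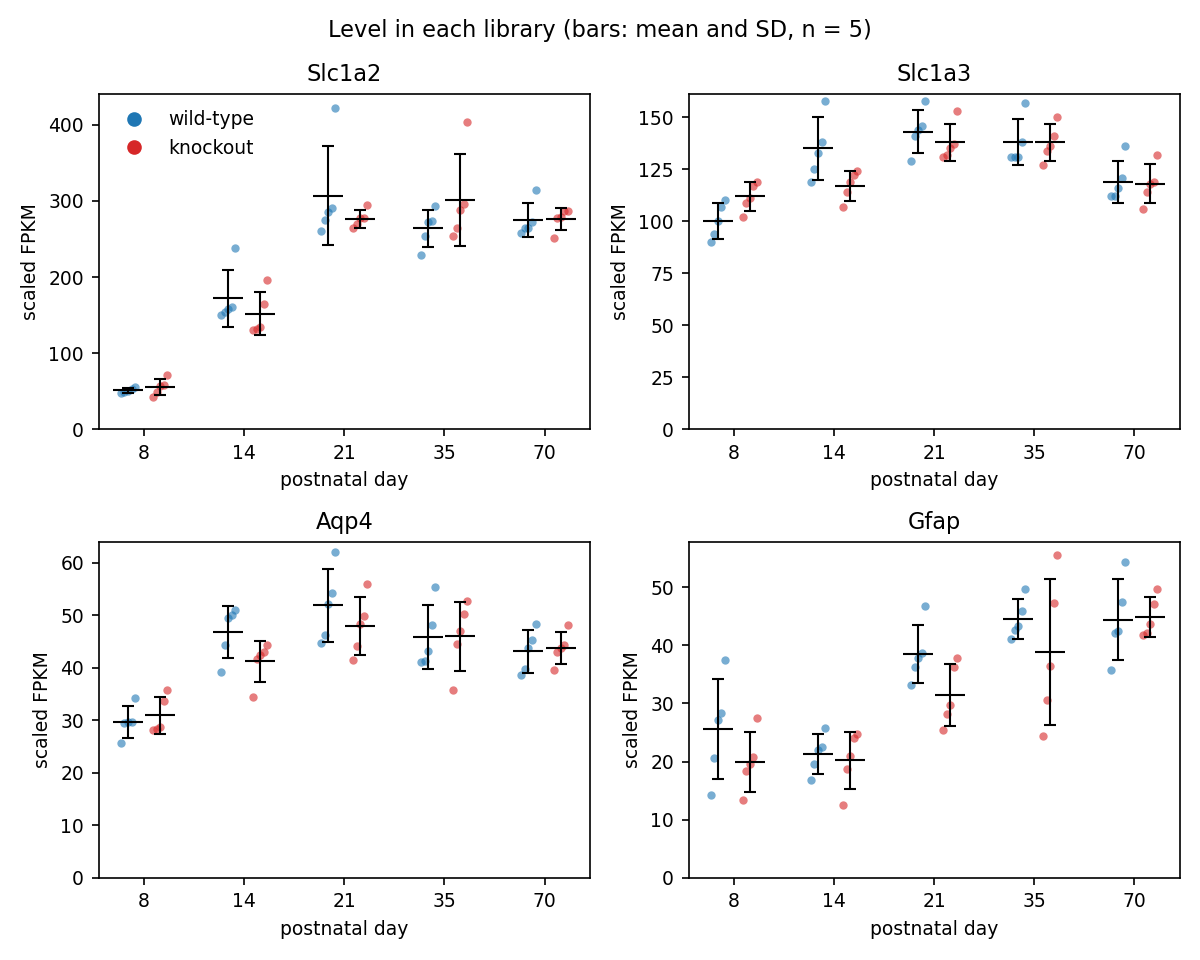
Scaled FPKM of Slc1a2, Slc1a3, Aqp4 and Gfap (vertical axes, each from 0) against postnatal day, with 1 point per library, wild-type in blue and knockout in red, and bars for the mean and SD of 5 libraries. Slc1a2 climbs from about 50 at day 8 to the level it holds from day 21, Slc1a3 and Aqp4 change less, and Gfap stays low until day 14 and is higher from day 21.

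In FPKM, Slc1a3 started above Slc1a2, and it changed much less. At day 8 the wild-type libraries held 90.0, 94.0, 100, 107 and 110 scaled FPKM of Slc1a3, with a mean of 100 ± 8.56. At day 14 they held 119, 125, 133, 138 and 158, with a mean of 135 ± 15.1, and no library overlapped with day 8. From then on the groups overlapped with their neighbours, with means of 143 ± 10.4, 138 ± 11.2 and 119 ± 10.2 for days 21, 35 and 70. The wild-type rise from day 8 to 14 was 0.42 ± 0.07 log2 units, or 1.34-fold (limma adjusted p = 1.40e-05), and no later step passed the test. At day 70 the 5 wild-type values were 112, 112, 116, 121 and 136, and at day 35 they were 131, 131, 131, 138 and 157. The step from day 35 to 70 was -0.20 ± 0.07 with an unadjusted p of 0.00855 and a limma adjusted p of 0.392.

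In the knockout the called rise of Slc1a3 lay between days 14 and 21, though the difference between genotypes itself, given below, was not called. The day 8 libraries held 102, 109, 111, 117 and 119 scaled FPKM, and the day 14 libraries 107, 114, 119, 122 and 124. These overlapped, and the step between them was 0.07 ± 0.07 log2 units (limma adjusted p = 0.517). At day 21 the values were 131, 132, 135, 137 and 153, all above every day 14 library, and the rise was 0.23 ± 0.07 (limma adjusted p = 0.0199). That call was lost without day 14 library 22-1 (limma adjusted p = 0.0736), without day 21 library 17-2 (0.0739), on the values as deposited (0.152) and after quantile normalization (0.405). The means in the knockout were 112 ± 6.85, 117 ± 7.05, 138 ± 8.97, 138 ± 8.82 and 118 ± 9.43 from day 8 to day 70. The step from day 35 to 70 was -0.23 ± 0.07, with an unadjusted p of 0.00359 and a limma adjusted p of 0.189.

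Aqp4 rose once, between days 8 and 14, in both genotypes. In the wild-type the day 8 libraries held 25.6, 29.5, 29.6, 29.7 and 34.3 scaled FPKM, and the day 14 libraries 39.1, 44.4, 49.4, 50.1 and 51.0. The wild-type groups did not overlap, and the rise was 0.64 ± 0.10 log2 units, or 1.56-fold (limma adjusted p = 2.16e-06). In the knockout the day 8 libraries held 28.1, 28.3, 28.8, 33.6 and 35.7, and the day 14 libraries 34.5, 41.6, 42.5, 43.0 and 44.4. Only the day 14 library 23-3, at 34.5, lay within the range of day 8, and the rise was 0.41 ± 0.10 log2 units, or 1.33-fold (limma adjusted p = 0.00128). Wild-type means of Aqp4 were 29.7 ± 3.07, 46.8 ± 4.98, 51.9 ± 6.95, 45.8 ± 6.08 and 43.1 ± 4.02 from day 8 to day 70, and knockout means were 30.9 ± 3.53, 41.2 ± 3.90, 47.9 ± 5.55, 46.0 ± 6.55 and 43.8 ± 3.08. No step of Aqp4 after day 14 passed the test in either genotype. The knockout step from day 14 to 21 was 0.21 ± 0.10 log2 units, with an unadjusted limma p of 0.0430 and a limma adjusted p of 0.142.

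Gfap did not rise in the second week and rose in the third. The wild-type libraries held 14.3, 20.6, 27.2, 28.3 and 37.4 scaled FPKM at day 8 and 16.8, 19.5, 22.0, 22.5 and 25.8 at day 14. The day 8 range contained the whole day 14 range, and the step was -0.20 ± 0.19 log2 units (limma adjusted p = 0.460). At day 21 the values were 33.1, 36.2, 37.8, 38.7 and 46.7, all above day 14, and the rise was 0.84 ± 0.19 log2 units, or 1.79-fold (limma adjusted p = 0.00113). Without the libraries that stand apart this rise was 0.63 with a limma adjusted p of 0.0501, just over the threshold of 0.05. The libraries left out there were the lowest pair of day 14 (21-3 at 16.8 and 20-2 at 19.5) and the highest of day 21 (16-2 at 46.7). Later means were 44.5 ± 3.40 at day 35 and 44.4 ± 6.96 at day 70, and neither later step passed the test.

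In the knockout Gfap held 13.3, 18.3, 19.5, 20.8 and 27.5 scaled FPKM at day 8 and 12.5, 18.8, 21.0, 24.0 and 24.7 at day 14, with a step of 0.02 ± 0.19 log2 units (limma adjusted p = 0.952). At day 21 it held 25.5, 28.1, 29.7, 36.3 and 37.8, all above day 14. The rise was 0.65 ± 0.19 log2 units, or 1.57-fold (limma adjusted p = 0.0116). Leaving out day 14 library 23-3, the lowest at 12.5, brought it to 0.49 with a limma adjusted p of 0.0779, and the values as deposited gave 0.61 with an adjusted p of 0.0563. The day 35 knockout libraries had the largest SD of any Gfap group, at 24.4, 30.5, 36.4, 47.2 and 55.6, and the day 70 libraries held 41.7, 42.1, 43.7, 47.1 and 49.7. From day 8 to 70 Gfap rose by 1.19 ± 0.19 log2 units in the knockout and by 0.84 ± 0.19 in the wild-type (limma adjusted p = 1.01e-06 and 2.50e-04).

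Read against all genes tested, the members' age calls were as follows. From day 8 to 14 in the wild-type 3 of the 4 rose, where 17.4% of all genes rose, and in the knockout 2 of 4 rose, where 18.7% did. From day 14 to 21 in the wild-type 2 of 4 rose against 10.3% of all genes, and in the knockout 3 of 4 rose against 10.7%. The median log2 change of the 4 members was 0.53 and 0.49 for these steps in the wild-type and 0.24 and 0.44 in the knockout, and the medians of all genes lay between -0.02 and 0.00. From day 8 to 70 all 4 rose in the wild-type, where 27.8% of all genes rose, and 3 of 4 in the knockout, where 29.1% rose. Slc1a3 was the fourth, with 0.25 ± 0.07 log2 units in the wild-type (limma adjusted p = 0.00407, not called on the values as deposited, at 0.09, or after quantile normalization, at 0.34) and 0.07 ± 0.07 in the knockout (limma adjusted p = 0.420, and -0.04 on the values as deposited).

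After day 21 no member was called. From day 21 to 35, 3.86% of all genes changed in the wild-type and 4.49% in the knockout, and 0 of 4 members did in either, with 0 of 4 at an unadjusted p under 0.05 in both. From day 35 to 70, 0.338% of all genes changed in the wild-type and 0.304% in the knockout, again with 0 of 4 members by limma. Slc1a3 alone had an unadjusted p under 0.05 in that last interval, in both genotypes. In bulk tissue a change in the number of astrocytes and a change in RNA per astrocyte cannot be told apart, and this holds for each of these results.

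**Figure D2:**
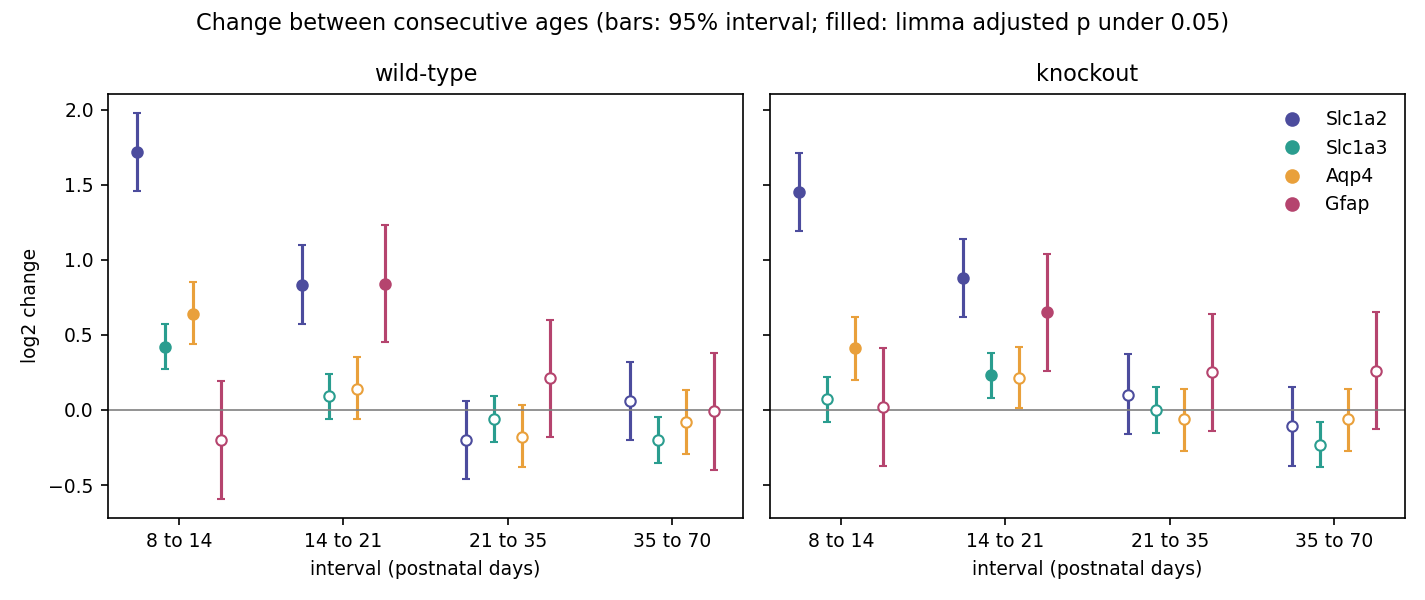
Log2 change of each member (vertical axis) over the 4 intervals between consecutive ages (horizontal axis), wild-type on the left and knockout on the right, with bars for the 95% interval and filled points where the limma adjusted p was under 0.05. The 5 filled points in each panel all lie in the intervals 8 to 14 and 14 to 21, and the Slc1a2 points, at 1.72 and 1.45, are the highest in the first.

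In FPKM, the 2 glutamate transporters changed places between days 8 and 21. Which of them is higher depends on the transcript lengths used for FPKM, which are not known here. The ratio of Slc1a2 to Slc1a3 FPKM was taken within each library, where the scaling factor cancels. At day 8 it was 0.444, 0.485, 0.530, 0.546 and 0.562 in the wild-type libraries and 0.390, 0.439, 0.478, 0.498 and 0.699 in the knockout libraries. Slc1a2 was thus below Slc1a3 in all 10 libraries. At day 14 the wild-type ratios were 0.971, 1.20, 1.20, 1.33 and 1.73 and the knockout ratios 1.14, 1.17, 1.22, 1.36 and 1.58. All but 1 of these 10 libraries, wild-type 20-4 at 0.971, were above 1.

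From day 21 on the FPKM of Slc1a2 exceeded that of Slc1a3 in all 30 libraries. For days 21, 35 and 70 the wild-type mean ratios were 2.13 ± 0.310, 1.93 ± 0.239 and 2.32 ± 0.319, and the knockout means were 2.02 ± 0.158, 2.19 ± 0.410 and 2.36 ± 0.123. The log2 ratio rose from day 8 to 14 by 1.30 in the wild-type and 1.38 in the knockout, and from day 14 to 21 by 0.74 and 0.65. In each of these 4 steps the groups did not overlap, and the two-sided exact permutation p was 0.00794, the smallest that 5 libraries against 5 allow, or 0.0258 after Benjamini-Hochberg adjustment over 13 comparisons. With 1 library left out the smallest p that the design allows rises, and each of the 4 steps then had an adjusted exact permutation p of 0.0516. None of the 4 later steps passed the test, with adjusted exact permutation p from 0.165 to 0.642. The 5 differences between genotypes at a given age lay between -0.07 and 0.17 log2 units, with adjusted exact permutation p from 0.545 to 0.913.

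**Figure D3:**
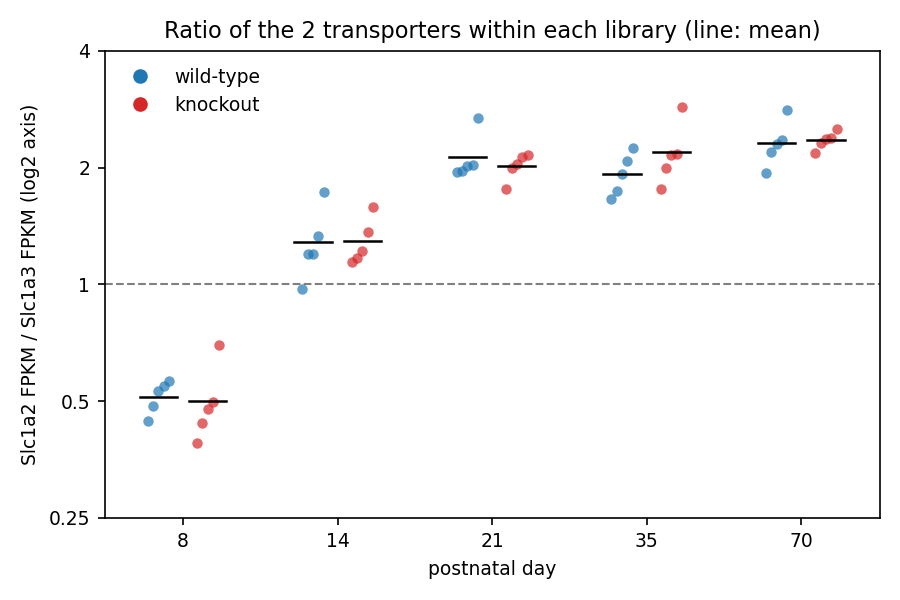
Ratio of Slc1a2 to Slc1a3 FPKM within each library (vertical axis, log2 scale) against postnatal day, with 1 point per library, wild-type in blue, knockout in red, lines for the group means and a dashed line at 1. All 10 libraries lie under 1 at day 8 and all 30 lie above 1 from day 21, and 1 of the 10 libraries of day 14 lies under the line.

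In FPKM, and so with the same limit of unknown transcript lengths, the order of the 4 members also changed with age. In the wild-type at day 8 the mean levels ran Slc1a3 at 100, Slc1a2 at 51.3, Aqp4 at 29.7 and Gfap at 25.6 scaled FPKM, and of the neighbours only Aqp4 and Gfap overlapped between libraries. At day 14 Slc1a2, at 172 ± 37.3, and Slc1a3, at 135 ± 15.1, overlapped. At day 70 Slc1a2 was at 275, Slc1a3 at 119, Gfap at 44.4 ± 6.96 and Aqp4 at 43.1 ± 4.02. The last pair again overlapped. The knockout had the same order at day 8, and at day 70 its Gfap and Aqp4, at 44.9 ± 3.45 and 43.8 ± 3.08, overlapped too.

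Whether the knockout changed these genes was asked at each age. No member passed the test at any age, and the values of the genotypes overlapped for all 4 members at all 5 ages on the scaled values. At day 8, 0.244% of all genes were called and 0 of 4 members, at day 14, 0.00677% and 0 of 4, and at days 21, 35 and 70, 0% of genes and 0 of 4 at each age. Of all genes, 9.32% had an unadjusted p under 0.05 at day 8 and between 2.38% and 2.95% at the other 4 ages. Among the members Slc1a3 had one at day 8 and at day 14. The 95% intervals of the difference, knockout minus wild-type, for Slc1a2 ran from -0.17 to 0.36 log2 units at day 8 and from -0.44 to 0.09 at day 14. At day 70 they ran from -0.25 to 0.27. These are intervals for 1 gene, not adjusted over all genes, so they are not the limit of what the test could call.

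Slc1a3 had opposite signs of the genotype difference at the first pair of ages. At day 8 the knockout mean of Slc1a3, 112 ± 6.85, was above the wild-type mean, 100 ± 8.56, by 0.15 ± 0.07 log2 units (unadjusted p = 0.0436, limma adjusted p = 0.519). This day 8 difference depended on the scaling, being 0.04 on the values as deposited and 0.24 after quantile normalization. At day 14 the knockout mean of 117 ± 7.05 was below the wild-type mean of 135 ± 15.1. That difference was -0.20 ± 0.07 (95% interval from -0.35 to -0.05, unadjusted p = 0.0112, limma adjusted p = 1.00). The change of Slc1a3 over days 8 to 14, knockout minus wild-type, differed by -0.35 ± 0.11 log2 units (unadjusted p = 0.00171, limma adjusted p = 0.715). Its direction held with each of the 20 libraries of those groups left out in turn, from -0.40 to -0.29, and no such fit brought it under the threshold. The test of genotype by age over all 5 ages gave Slc1a3 an unadjusted p of 0.0333 and a limma adjusted p of 1.00. The unadjusted p of this limma test was 0.0902 on the values as deposited and 0.601 after quantile normalization. Without the libraries that stand apart it was 0.0272.

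Slc1a3 and Aqp4 at day 14 depended on how libraries were scaled. On the values as deposited, Slc1a3 was 127 to 158 FPKM in the wild-type and 110 to 124 in the knockout, and Aqp4 was 47.2 to 55.4 and 33.5 to 44.4. All 5 knockout libraries were below all 5 wild-type libraries for these 2 of the 4 members, as they were for 1.10% of all genes. On scaled values this held for 0 of 4 members and 0.250% of all genes. Without scaling the median of all genes at day 14 was -0.09 in place of 0.01 log2 units, knockout minus wild-type. The knockout mean was 0.806 of the wild-type mean for Slc1a3 and 0.819 for Aqp4 as deposited, and 0.869 and 0.881 after scaling, and limma called neither in either case.

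The mean of Gfap was lower in the knockout at 4 of 5 ages on scaled values and at all 5 as deposited, where day 70 was at -0.04 log2 units, with no age passing the test. The day 14 difference, -0.10, was 0.06 without knockout library 23-3. The knockout and wild-type means were 19.9 ± 5.10 and 25.6 ± 8.68 at day 8, 20.2 ± 4.92 and 21.3 ± 3.38 at day 14, and 31.5 ± 5.32 and 38.5 ± 5.04 at day 21. At day 35 they were 38.8 ± 12.6 and 44.5 ± 3.40, and at day 70 the knockout was level with the wild-type, at 44.9 ± 3.45 and 44.4 ± 6.96. Averaged over ages the difference was -0.19 ± 0.09 log2 units (95% interval from -0.36 to -0.01, unadjusted p = 0.0350, limma adjusted p = 0.821). For this average 0.0338% of all genes were called and 0 of 4 members, and 5.87% of genes had an unadjusted p under 0.05. The other 3 members differed on average by -0.01 (Slc1a2), -0.02 (Slc1a3) and -0.04 (Aqp4), with 95% intervals from -0.12 to 0.11, from -0.09 to 0.04 and from -0.13 to 0.05.

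**Figure D4:**
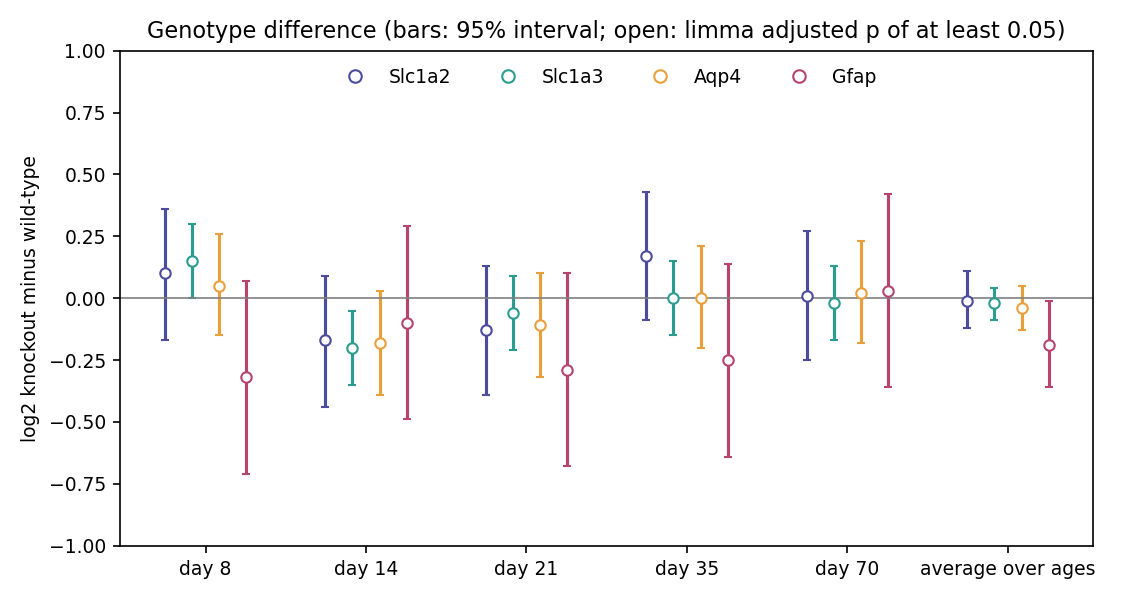
Log2 difference, knockout minus wild-type (vertical axis), of each member at each age and on average over ages (horizontal axis), with bars for the 95% interval and open points because no limma adjusted p was under 0.05. The Slc1a3 interval lies above or at 0 at day 8 and under 0 at day 14, and the Gfap points lie under 0 at 4 of 5 ages, of which day 14 is above 0 without knockout library 23-3.

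The genotype difference of the age course was also tested directly. For genotype by age 0.00677% of all genes were called, and for the difference of the change over days 8 to 70, 0.0135%. The difference of each of the 4 consecutive steps called 0% of genes, with between 1.24% and 6.25% of genes at an unadjusted p under 0.05. In none of these 6 tests was any of the 4 members called by limma. On scaled values only Slc1a3 had an unadjusted p under 0.05 (genotype by age, and day 8 to 14). So Slc1a3, called from day 8 to 14 in the wild-type and from day 14 to 21 in the knockout, was not shown to differ between genotypes.

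The members differed in how far libraries of 1 group scattered. The residual SD on the log2 scale was 0.11 for Slc1a3, 0.16 for Aqp4, 0.20 for Slc1a2 and 0.31 for Gfap, and the median of all genes was 0.20. Of the 258 genes within 0.5 log2 units of the level of Slc1a3, 94.2% scattered more. Of the 1249 genes near the level of Gfap, 14.5% scattered more. The same genotype difference is thus harder to detect for Gfap than for Slc1a3, and the range of group means was 2.55 log2 units for Slc1a2, 1.19 for Gfap, 0.79 for Aqp4 and 0.51 for Slc1a3.

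Within groups the members were not all high in the same libraries. Over the 50 libraries, as log2 deviations from the group mean, Slc1a3 and Aqp4 were correlated with a Pearson r of 0.60 (rho by Spearman 0.54, permutation adjusted p over 6 pairs 3.00e-04 and 0.00168). Without the 2 libraries farthest from the median of Slc1a3, r was 0.58. For Aqp4 and Gfap r was 0.41 and rho 0.36 (permutation adjusted p 0.0258 and 0.0395), and r was 0.28 without the 2 farthest libraries. For Slc1a2 and Aqp4 r was 0.37 and rho 0.41 (permutation adjusted p 0.0505 and 0.0236), and r was 0.28 without 2. For the other pairs r was 0.23 (Slc1a2 and Slc1a3), 0.11 (Slc1a3 and Gfap) and -0.14 (Slc1a2 and Gfap), with permutation adjusted p from 0.235 to 0.474. In the same order rho was 0.30, 0.11 and -0.10, with permutation adjusted p of 0.0669, 0.512 and 0.512. Libraries share their scaling and depth across genes. On the values as deposited r was 0.67 for Slc1a3 and Aqp4, 0.66 for Aqp4 and Gfap and 0.53 for Slc1a3 and Gfap. For Slc1a2 it was then lower with Slc1a3 (0.15) and with Aqp4 (0.31), and 0.10 with Gfap.

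The libraries with the largest deviations were not the same for each member. Slc1a2 deviated by 0.49 in wild-type 21-3 at day 14 and by 0.48 in wild-type 16-2 at day 21, where Slc1a3 deviated by 0.04 and 0.14 and Gfap by -0.32 and 0.28. Gfap deviated by -0.75 in wild-type 26-1 at day 8 and by -0.64 in knockout 23-3 at day 14. The latter was also the lowest of its group for Aqp4, at 34.5 scaled FPKM.

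Over the 10 group means, as a description with no test, the course of Aqp4 was most like that of Slc1a2 among the members (Pearson r 0.94), then Slc1a3 (0.90), then Gfap (0.54). Slc1a2 and Slc1a3 had an r of 0.79, Slc1a2 and Gfap 0.75, and Gfap and Slc1a3 0.41. Group means of 1 age share their age. Of the 3863 genes whose group means ranged over at least 1 log2 unit, 748 were closer to Slc1a2 than Aqp4 was, and 124 were closer to Aqp4 than Slc1a2 was. For Slc1a3 and Aqp4 these counts were 8 and 387. Slc1a3 and Aqp4 themselves ranged over less than 1 log2 unit, at 0.51 and 0.79. Other genes with such small ranges were not counted, so the counts are not ranks among all genes. Nearest to the mean course of the 4 members were ENSRNOG00000000700 and ENSRNOG00000033097, both with an r of 0.99, and farthest were ENSRNOG00000015999 and ENSRNOG00000039415, both with -0.99. ENSRNOG00000000700 went from 0.408 scaled FPKM at day 8 to 2.27 at day 70 in the wild-type (from the mean log2 value), and ENSRNOG00000015999 from 40.1 to 21.7.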

How the data were processed

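RNA was measured in 50 libraries of rat medial prefrontal cortex, 5 for each genotype and age. Per the labels' protocols, RNA was depleted of ribosomal RNA, amplified with 10 PCR cycles and sequenced as 50 bp single-end reads. The labels' protocols give gsnap against rn4, whereas rn4, Cufflinks, bedtools and BWA 0.6.1 are named by the submitters' processing notes. The annotation, and which of both aligners made the tables, are not given in the sources used here. FPKM per gene were deposited by the authors, 1 table per genotype, with no counts, and strand use is not given, so reads of overlapping genes may be shared. All columns matched a sample by title (0 unmatched). Titles carry 3 first numbers per group, whose meaning the labels do not give.

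From these FPKM, library factors (median ratio to the geometric mean), log2(FPKM/factor + 0.5), a filter at a mean of 0.5 and a limma 3.58.1 model (R 4.3.3, trend, robust, 10 groups, 40 residual degrees of freedom) were computed, with adjustment over 14779 genes per comparison. Two-sided exact permutation tests (5 against 5) served for the transporter ratio, and 100000 permutations within groups for the correlations (scipy 1.17.1, numpy 2.4.6, pandas 2.3.3, Python 3.11.15, figures with matplotlib 3.10.9). Likeness used genes ranging over at least 1 log2 unit, and the 2 identifiers with the highest and the 2 with the lowest r were named. The members, lists and tests were chosen with earlier results of these data known. Lists of other astrocyte, glutamate and cell type genes were not used here, since no source paired their symbols with identifiers. Alternatives were no scaling, quantile normalization, pseudocounts of 0.1 and 1, a filter at 1 or none, only the groups compared, averaging or a random effect by first title number, array weights, leaving out each library and, chosen after seeing the data, leaving out the 6 libraries that stand apart. Depth is known only as a ratio between libraries, from 0.397 to 1.42 of the median, so no counting error is given.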

Additional observations from a re-analysis of the deposited data

Results flagged for a closer look

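In 50 groups of 5 (4 genes and the transporter ratio in each genotype and age), 9 had a highest or lowest library whose gap to the nearest, divided by the group's range, was above Dixon's 95% critical value for 5 libraries, and chance gives about 1 in 20. For Slc1a2, 5 of 10 groups were so marked. Wild-type library 21-3 at day 14 held 238 scaled FPKM and its group mates 150 to 160, 16-2 at day 21 held 422 against 260 to 291, and 2-3 at day 70 held 314 against 258 to 272. Knockout library 7-3 at day 35 held 404 against 254 to 296, and 1-2 at day 70 held 251, below the 277 to 287 of the others. In wild-type 16-2 the ratio of Slc1a2 to Slc1a3 was 2.68 against 1.95 to 2.03.

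For Slc1a3 wild-type library 11-1 at day 35 held 157 against 131 to 138, and knockout library 17-2 at day 21 held 153 against 131 to 137. For Aqp4 knockout library 23-3 at day 14 held 34.5 against 41.6 to 44.4. Of these, 21-3, 16-2 and 7-3 are among the libraries that stand apart from their groups over all genes. Without the libraries that stand apart, Slc1a2 was 157 ± 2.93 (SD, n = 3) at day 14 and 278 ± 13.8 (n = 4) at day 21 in the wild-type, and 276 ± 19.5 (n = 4) at day 35 in the knockout.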

How the results depend on the processing

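Over 2554 values under alternatives, 2495 kept their direction and side of the threshold or were uncalled in both, 57 lost a call, 2 gained one and 0 called values reversed; 137 uncalled values changed sign. None of the 1280 genotype values for single genes was called, with a smallest limma adjusted p of 0.184. The rises of Slc1a2 and Aqp4 kept their calls throughout. As deposited, Slc1a3 had 0.09 for the wild-type from day 8 to 70 and 0.19 for the knockout from day 14 to 21, and Gfap 0.61 for the knockout from day 14 to 21, none called; after quantile normalization Slc1a3 had 0.34 and 0.24, not called. The cause was not tested. Leaving out each library gave 0.19 to 0.25 for Slc1a3 and 0.49 to 0.73 for Gfap in the knockout from day 14 to 21. Without the libraries that stand apart Gfap had 0.63 in the wild-type from day 14 to 21. The transporter ratio steps (wild-type 8 to 14 and 14 to 21, then knockout) were 1.36, 0.71, 1.41 and 0.67 averaged by first title number and 1.17, 0.78, 1.50 and 0.65 without the libraries that stand apart, not called, with fewer values per group. Leaving out each library they ranged from 1.18 to 1.39, 0.65 to 0.85, 1.30 to 1.50 and 0.60 to 0.72. The knockout ratio from day 35 to 70 ranged from 0.05 to 0.22 and passed only without 7-3 (exact permutation adjusted p 0.0413). Slc1a3 and Gfap had an r of 0.53 as deposited (permutation adjusted p 9.60e-04). Without scaling the median of all genes from day 8 to 70 shifted by -0.14 in the wild-type and -0.10 in the knockout, and 37.1% of the called genes rose in place of 50.4% in the wild-type; from day 14 to 21 there it was 29.7% in place of 50.4%. No paired analysis was possible because the title numbers that mark replicates are never shared between groups.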
